A study of Mus musculus with 2 samples.

Results

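The serine/threonine phosphatases PP1, PP2A, PP4, PP5 and PP6 are assembled from a few catalytic subunits and many regulatory subunits, and this account describes the mouse genes that encode them in the hippocampus. Members were the protein-coding genes whose symbol begins with Ppp1, Ppp2, Ppp4, Ppp5 or Ppp6 followed by c (catalytic) or r (regulatory) and which had reads in both libraries. The calcineurin genes of the Ppp3 family were left out. GENCODE M21 lists 70 protein-coding genes with such symbols, of which 61 had reads in both libraries, 5 in 1 library only (Ppp1r13l, Ppp1r17, Ppp1r32, Ppp1r3b and Ppp1r42) and 4 in neither (Ppp1r14d, Ppp1r1c, Ppp1r27 and Ppp1r3a). The 61 members were drawn from 18311 genes with reads, 14789 of them protein-coding.

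The study sequenced long complementary DNA reads from the hippocampus (the labels say its layer) of male B6CASTF1/J mice, first-generation crosses of C57BL/6J with CAST/EiJ, at 14 days of age. There were 2 libraries, biological replicates 1 and 2 of a single group for which the labels name no treatment, each started from 2 µg of RNA from 3 males. The sample labels name different animals for each, but the experiment descriptions repeat the same ones, so the spread between these libraries may be technical. No condition was contrasted, and every test below compares one library with the other. Long reads can follow a transcript from end to end, so the data bear on both the amount of each subunit's RNA and the form it takes. Part of the reads matched a transcript incompletely, as given further on.

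PP1 and PP2A remove most of the phosphate groups that kinases place on serine and threonine. A PP1 catalytic subunit binds 1 of many partners, which carry it to a target or block its active site. PP2A joins a catalytic subunit to a scaffold (the A subunit) and to 1 variable B subunit, which selects the substrate. At hippocampal synapses PP1, its inhibitors and its spine-targeting subunits oppose calcium-dependent and cAMP-dependent kinases, and are known for their part in long-term depression.

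Replicate 1 held 821324 mouse reads and replicate 2 held 743862. Levels are given as CPM, a gene's reads per 1000000 mouse reads of the library. A long read stands for 1 cDNA, so CPM is not divided by length. The part of transcript length in the levels was not tested. Finding no read allows for up to 3, equal to 3.65 CPM (replicate 1) or 4.03 CPM (replicate 2). Shares of reads carry Wilson intervals at 95% confidence. Amplified reads are not independent molecules, so these intervals and the 3-read limit hold counting error and nothing else. In a tissue RNA, fewer cells of a type and less RNA per cell cannot be told apart. Markers fitting the labelled tissue were present: the CA1 list summed to 854 CPM in replicate 1 and 1077 CPM in replicate 2, the CA3 list to 317 and 255 CPM, and the dentate granule list to 371 and 501 CPM. The libraries stood apart in myelinating oligodendrocyte markers, all 8 tested of which were lower in replicate 2, 6 of them past the adjusted threshold of the gene test described further on. That list summed to 5915 CPM in replicate 1 and 2951 CPM in replicate 2, and none of its 12 genes was at 0 in either library.

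The sequences below show where the members' transcripts differ in what they encode, and the shares of each form follow further on. All are from the GENCODE M21 transcripts on mm10, printed 5′ to 3′ on the gene's strand. PP1 gamma, encoded by Ppp1cc, has 2 known carboxy-terminal ends, gamma1 (323 codons) and gamma2 (337 codons). Both read the same exon of chromosome 5, on the plus strand, before they part. The capitals mark the bases read only in gamma1 (chr5:122174055-122174144) or only in gamma2 (chr5:122174055-122175050, 2 exons), stop codon included.
Ppp1cc gamma1 end: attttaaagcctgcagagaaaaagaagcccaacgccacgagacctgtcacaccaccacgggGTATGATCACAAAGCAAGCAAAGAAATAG
Ppp1cc gamma2 end: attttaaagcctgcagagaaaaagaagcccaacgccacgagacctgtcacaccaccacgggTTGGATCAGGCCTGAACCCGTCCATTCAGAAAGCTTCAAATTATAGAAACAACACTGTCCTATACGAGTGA

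The B56 gamma gene Ppp2r5c likewise ends in 2 ways, on the plus strand of chromosome 12. The short end (chr12:110570696-110570801) reads on from the shared exon into the next intron, and the long end (chr12:110570696-110580532, 2 exons) splices to a further exon. Capitals mark the bases found in 1 end only, stop codon included.
Ppp2r5c short end: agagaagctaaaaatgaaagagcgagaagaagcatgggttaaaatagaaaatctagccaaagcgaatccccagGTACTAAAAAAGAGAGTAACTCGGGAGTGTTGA
Ppp2r5c long end: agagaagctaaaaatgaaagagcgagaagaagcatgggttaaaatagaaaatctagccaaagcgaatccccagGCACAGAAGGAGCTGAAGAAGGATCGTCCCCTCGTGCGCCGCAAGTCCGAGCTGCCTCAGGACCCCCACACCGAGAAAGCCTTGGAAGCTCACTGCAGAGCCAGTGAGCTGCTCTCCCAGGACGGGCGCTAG

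The next members are shown because part of their reads lacked or gained coding bases. The Ppp1r1a exon (chr15:103534350-103534410, minus strand, 61 bases) and the Ppp2r2d exon (chr7:138869690-138869855, plus strand, 166 bases) were skipped in part of the reads and are printed whole in capitals. Neither length is a multiple of 3, so a transcript without the exon changes frame. The Ppp1r12c pair (chr7:4483171-4483355, minus strand) spans a junction at which 1 form has 3 more bases, in capitals.
Ppp1r1a exon: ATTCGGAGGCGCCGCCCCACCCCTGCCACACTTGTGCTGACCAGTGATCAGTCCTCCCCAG
Ppp2r2d exon: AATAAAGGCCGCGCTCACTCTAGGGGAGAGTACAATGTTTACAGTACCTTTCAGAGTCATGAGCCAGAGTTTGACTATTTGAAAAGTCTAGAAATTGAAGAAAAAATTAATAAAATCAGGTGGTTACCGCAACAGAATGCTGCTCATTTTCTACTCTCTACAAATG
Ppp1r12c shorter form: gccctgcccagagagaggcgcccgaagggc
Ppp1r12c longer form: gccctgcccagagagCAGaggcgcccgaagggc

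Together the members held 5896 reads in replicate 1 and 5241 in replicate 2, which is 0.718% and 0.705% of the mouse reads. Their summed level was 7112 ± 93.6 CPM (SD, n = 2). Levels spanned from 1366 CPM for the scaffold Ppp2r1a to 1.89 CPM for Ppp1r36. The median member stood at 45.7 CPM, beside 18.5 CPM over all protein-coding genes with reads. Members needed reads in both libraries, while the background took genes with a read in either. This difference favours the members, here and in the shares at 100 CPM below. Counting annotated transcripts only, these medians were 28.3 and 8.23 CPM over the same genes. At 100 CPM or more were 20 members (32.8%, beside 13.6% of protein-coding genes), 34 lay from 10 to 100 CPM and 7 lay under 10 CPM. The scaffold Ppp2r1a and the catalytic subunit Ppp2ca alone held 32.3% of the members' reads.

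**Figure D1:**
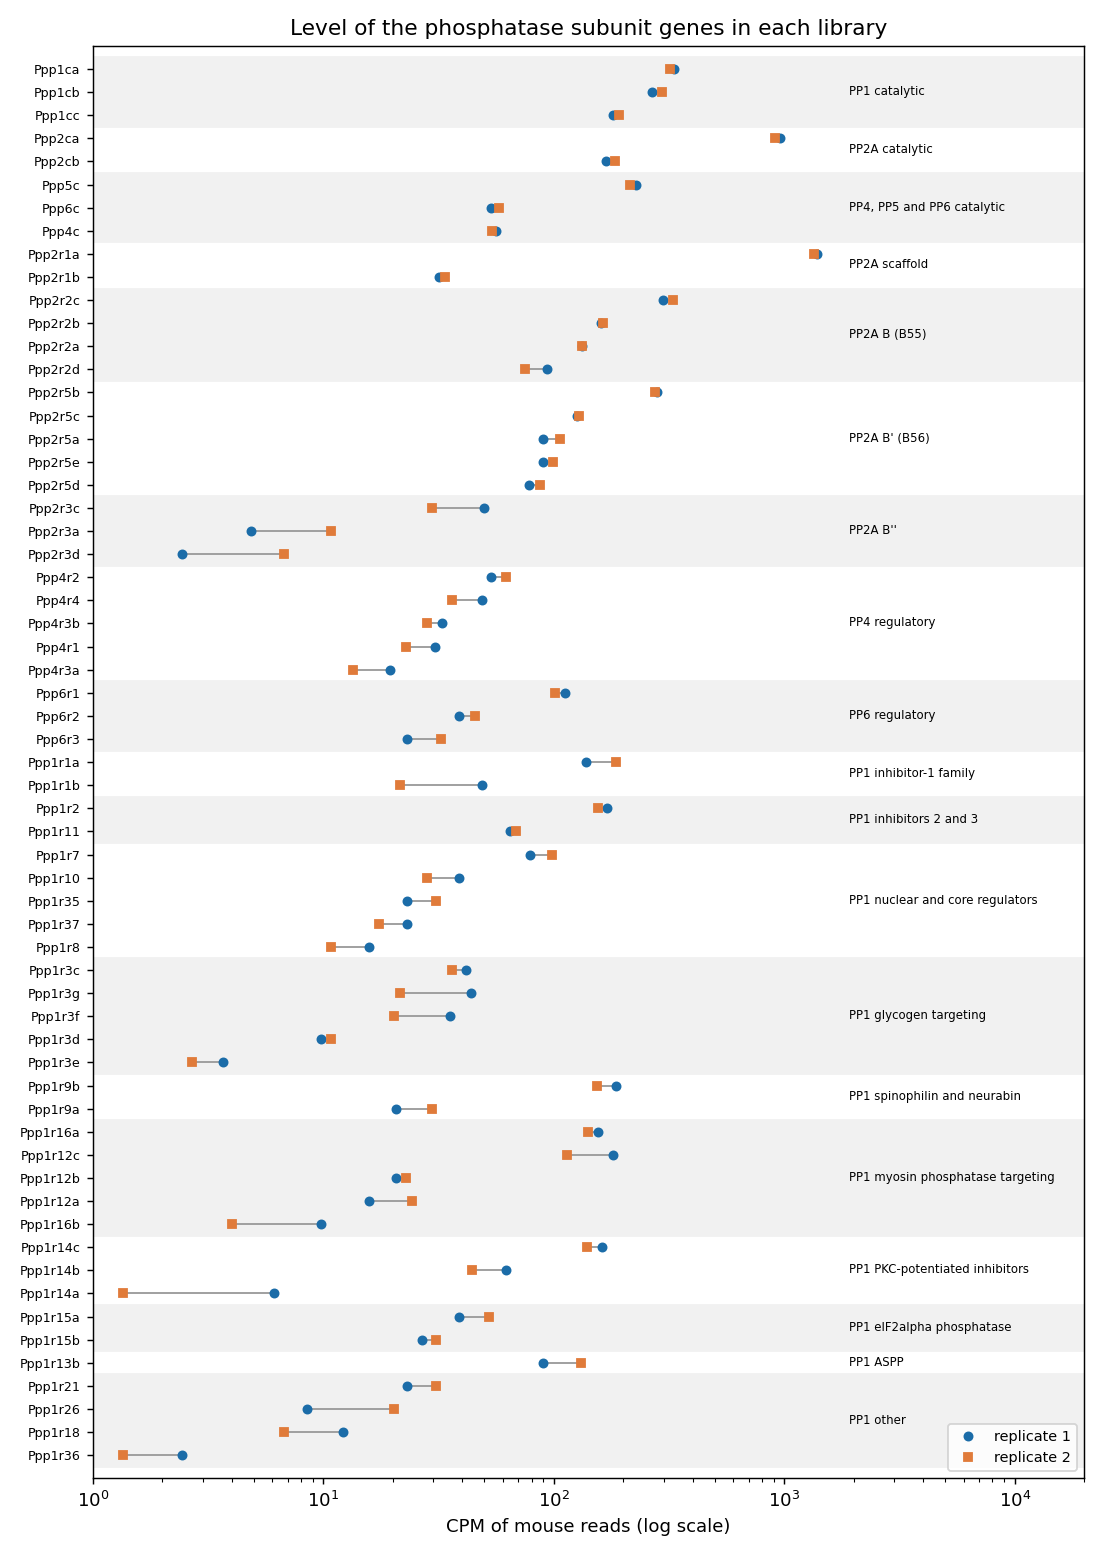
Level of each of the 61 members in CPM of mouse reads (log axis), grouped by role and ordered by mean level within the role, with a circle for replicate 1 and a square for replicate 2 joined by a line. Ppp2r1a and Ppp2ca stand apart at the right, and Ppp1r36 lies lowest at 1.89 CPM.

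Among catalytic subunits, PP2A alpha (Ppp2ca) was the most abundant. Ppp2ca had 783 reads (953 CPM) in replicate 1 and 675 reads (907 CPM) in replicate 2. Its paralogue Ppp2cb, PP2A beta, had 139 reads (169 CPM) and 137 reads (184 CPM). The libraries gave near-equal values for both genes, and Ppp2ca held 84.9% of the pair's reads in replicate 1 (interval 82.5 to 87.1%) and 83.1% (80.4 to 85.5%) in replicate 2. The mean share was 84.0% ± 1.27 (SD, n = 2).

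The 3 PP1 catalytic genes were closer to one another. Ppp1ca (alpha) had 274 and 237 reads in replicates 1 and 2, or 334 and 319 CPM. Ppp1cb (beta) had 218 and 220 reads, or 265 and 296 CPM. Ppp1cc (gamma) had 148 and 142 reads, or 180.2 and 191 CPM. The order alpha, beta, gamma held in both libraries, with shares of 41.2% ± 2.30, 35.4% ± 1.88 and 23.4% ± 0.411 (SD, n = 2), although the intervals of alpha and beta overlapped in replicate 2 (35.7% to 43.5% against 33.0% to 40.7%). Summed over each class, PP1 catalytic RNA came to 792 ± 18.4 CPM and PP2A catalytic RNA to 1107 ± 21.9 CPM (SD, n = 2).

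PP5, encoded by Ppp5c, is a single protein that carries its own regulatory domain and works with heat shock chaperones. It had 186 and 159 reads, or 227 and 214 CPM, which placed it above PP1 gamma in both libraries. This order leaves out the 56 and 50 reads of the processed pseudogene Ppp1ccb, described further on. With those reads added to PP1 gamma the order would not hold. The shares of the PP1 catalytic genes leave them out as well. Ppp6c had 44 and 43 reads (mean 55.7 CPM) and Ppp4c had 46 and 40 reads (mean 54.9 CPM). The last 2 genes changed places between the libraries, so their order is not resolved.

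The PP2A scaffold was nearly all of the alpha kind. Ppp2r1a, the gene with the highest level of all members, had 1137 reads (1384 CPM) in replicate 1 and 1002 reads (1347 CPM) in replicate 2. Ppp2r1b had 26 and 25 reads, or 31.7 and 33.6 CPM. Ppp2r1a held 97.8% of scaffold reads in replicate 1 (interval 96.7% to 98.5%) and 97.6% in replicate 2 (96.4% to 98.3%). Scaffold RNA summed to 1398 ± 25.0 CPM and PP2A catalytic RNA to 1107 ± 21.9 CPM (SD, n = 2).

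The B55 subunits, WD-repeat proteins that direct PP2A to cytoskeletal and cell cycle substrates, were led by the gamma gene. Ppp2r2c (gamma, brain-enriched) had 245 reads in each library, or 298 and 329 CPM. Ppp2r2b (beta, the gene with the repeat expanded in a spinocerebellar ataxia) had 132 and 121 reads, or 161 and 163 CPM. Ppp2r2a (alpha) had 109 and 99 reads, or 133 CPM in both. Ppp2r2d (delta) had 77 and 56 reads, or 93.8 and 75.3 CPM. Ppp2r2c held 45.3% ± 2.48 of the class and Ppp2r2d 12.2% ± 2.07 (SD, n = 2), and the intervals of Ppp2r2a and Ppp2r2b overlapped in both libraries.

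The B56 subunits, which bind short linear motifs in their partners, were led by the beta gene, and the other members lay close together. Ppp2r5b had 230 and 204 reads, or 280.0 and 274 CPM, and 40.8% ± 1.94 of the class (SD, n = 2). Ppp2r5c (gamma) followed with 104 and 96 reads, or 127 and 129 CPM, and 18.8% of the class, but with annotated transcripts only its share was 3.82%, the lowest of the 5 genes. Ppp2r5a (alpha), Ppp2r5e (epsilon) and Ppp2r5d (delta, mutated in a neurodevelopmental disorder) had from 64 to 79 reads in each library, with mean levels of 98.2, 94.8 and 82.7 CPM. Of these last genes Ppp2r5a and Ppp2r5e had the same count in replicate 1, 74 reads, and all pairwise intervals overlapped. The B55 and B56 classes reached about the same total, 693 ± 10.6 CPM and 681 ± 22.3 CPM (SD, n = 2).

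The calcium-binding B'' class was low. Ppp2r3c had 41 and 22 reads, or 49.9 and 29.6 CPM. Ppp2r3a had 4 and 8 reads and Ppp2r3d had 2 and 5 reads, so their levels are known only roughly. The class summed to 52.1 ± 7.19 CPM (SD, n = 2).

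PP4 and PP6 have their own regulatory genes. Ppp4r2, which joins Ppp4c in the core PP4 complex, had 44 and 46 reads, or 53.6 and 61.8 CPM. Ppp4r4 had 40 and 27 reads (48.7 and 36.3 CPM), the substrate-binding Ppp4r3b 27 and 21 reads (32.9 and 28.2 CPM), Ppp4r1 25 and 17 reads (30.4 and 22.9 CPM), and Ppp4r3a 16 and 10 reads (19.5 and 13.4 CPM). Ppp4r2 led in both libraries, yet its interval overlapped that of Ppp4r4 in replicate 1 (22.3% to 36.6% against 20.0% to 33.8%) and in replicate 2 (29.9% to 46.9% against 15.8% to 30.5%).

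Among the Sit4-associated subunits of PP6, Ppp6r1 had 92 and 75 reads, or 112 and 101 CPM. Ppp6r2 had 32 and 34 reads (39.0 and 45.7 CPM) and Ppp6r3 had 19 and 24 reads (23.1 and 32.3 CPM). Ppp6r1 held 60.4% ± 5.62 of the class (SD, n = 2), and its interval lay above those of the other 2 genes in both libraries. With annotated transcripts only, the mean share of Ppp6r2 was 3.62% and that of Ppp6r3 6.69%, against 24.0% and 15.7%. These shares rest on 1 and 3 annotated reads of Ppp6r2 and 7 and 2 of Ppp6r3, so the order turned in replicate 1 only.

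**Figure D2:**
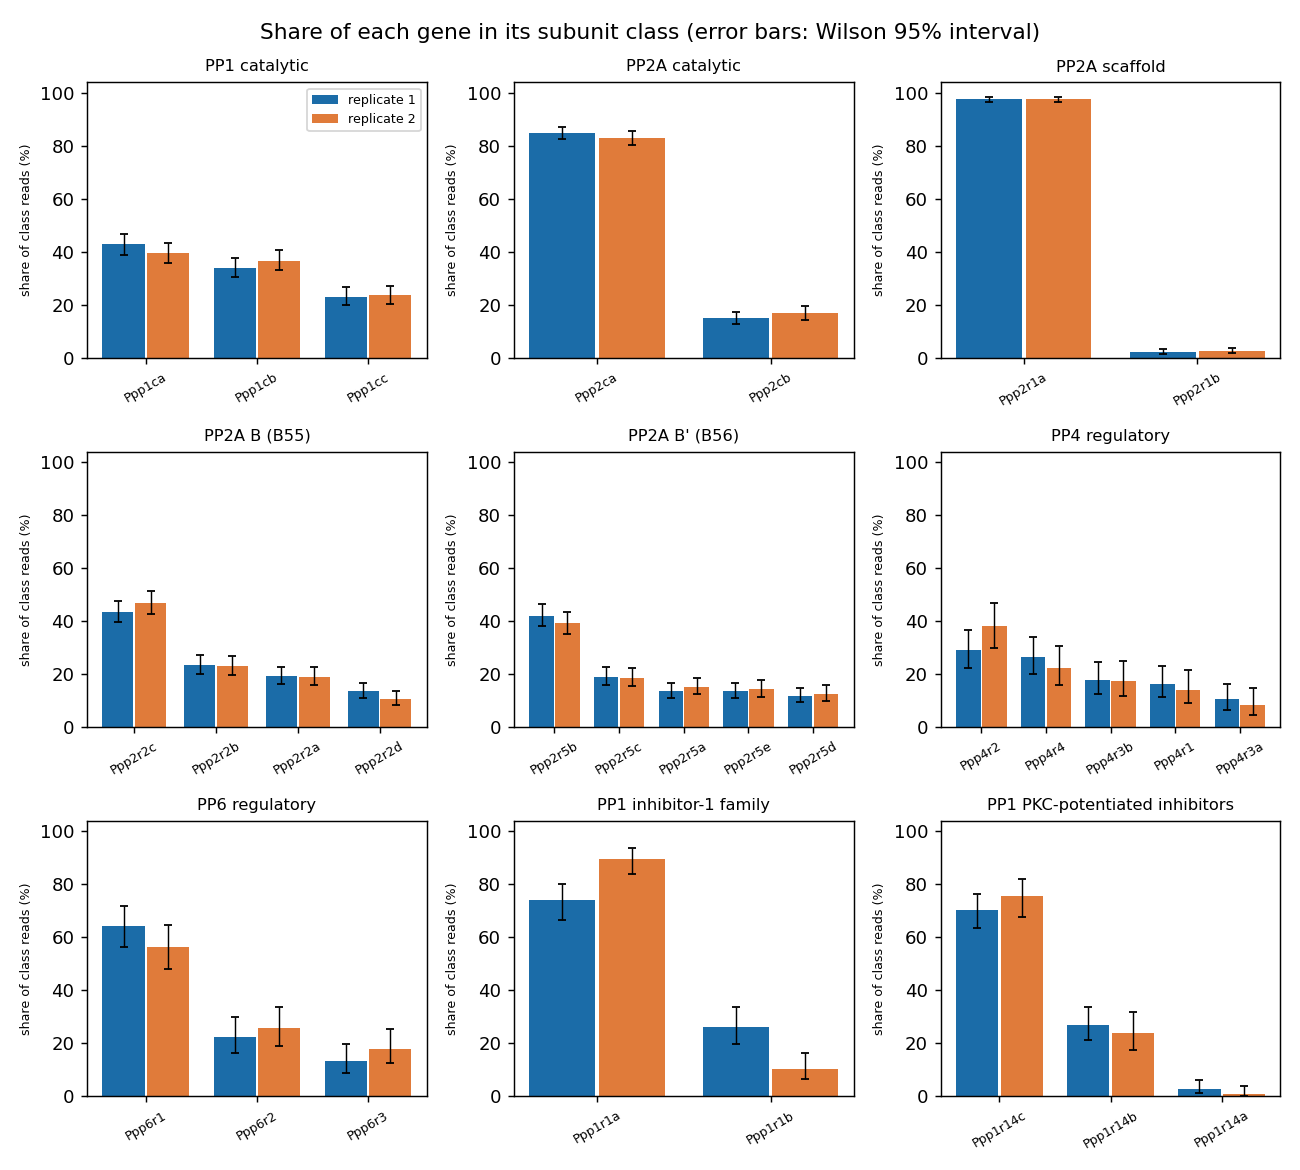
Share of each gene in the reads of its subunit class, in percent, for 9 classes; bars are replicates 1 and 2 and error bars are Wilson 95% intervals. Ppp2r1a takes 97.7% of scaffold reads and Ppp2ca 84.0% of PP2A catalytic reads on average, while PP1 catalytic, B55 and B56 reads are spread over several genes.

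The inhibitor-1 and inhibitor-2 genes had mean levels of 162 and 163 CPM. Inhibitor-1 (Ppp1r1a) blocks PP1 once protein kinase A has phosphorylated it, and it had 113 and 138 reads, or 138 and 186 CPM. Its relative Ppp1r1b, the dopamine-regulated and cAMP-regulated phosphoprotein best known from the striatum, had 40 and 16 reads, or 48.7 and 21.5 CPM. Ppp1r1a therefore held 73.9% of the pair's reads in replicate 1 (66.4% to 80.2%) and 89.6% in replicate 2 (83.8% to 93.5%). Neither gene passed the gene test described further on (adjusted p 0.325 for Ppp1r1a and 0.17 for Ppp1r1b, Fisher's exact test). Ppp1r2 (inhibitor-2) had 140 and 116 reads, or 171 and 156 CPM, and Ppp1r11 (inhibitor-3) had 53 and 51 reads, or 64.5 and 68.6 CPM.

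The striatal markers listed beside Ppp1r1b summed to 45.1 CPM in replicate 1 and 67.2 CPM in replicate 2, with 7 of 8 genes having reads, and the dopamine receptor genes Drd1 and Drd2 had 2 and 4 and 1 and 2 reads. Their total, from 37 and 50 reads, was thus higher in the library in which Ppp1r1b was lower. The oligodendrocyte list given above (5915 and 2951 CPM) and the choroid plexus list (206 and 90.1 CPM, mostly Ttr) were lower in that library, as Ppp1r1b was. So were the CA3, astrocyte, microglia and vascular lists, while the CA1, dentate granule and GABAergic lists were higher. The part of these cell types in the Ppp1r1b values was not tested. Known genes on the opposite strand had 53 and 63 reads that overlapped Ppp1r1b.

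The inhibitors that protein kinase C potentiates were led by Ppp1r14c, with 133 and 104 reads or 162 and 139.8 CPM. Ppp1r14b had 51 and 33 reads (62.1 and 44.4 CPM), and the smooth-muscle inhibitor Ppp1r14a had 5 and 1 reads. Ppp1r14c held 72.9% ± 3.53 of the class (SD, n = 2).

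Of the subunits that place PP1 in dendritic spines, spinophilin (Ppp1r9b) had far more reads than neurabin (Ppp1r9a). Their longest coding transcripts have 4508 and 9547 bases, and the part of transcript length in this difference was not tested. Ppp1r9b had 153 and 114 reads, or 186 and 153 CPM. Ppp1r9a had 17 and 22 reads, or 20.7 and 29.6 CPM. Ppp1r9b took 86.9% ± 4.37 of the pair (SD, n = 2), and 96.9% when only annotated transcripts were counted.

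The myosin phosphatase targeting class was held mostly by Ppp1r16a and Ppp1r12c, both of which bring PP1 to cytoskeletal substrates. Ppp1r16a had 128 and 105 reads, or 156 and 141 CPM. Ppp1r12c had 149 and 85 reads, or 181 and 114 CPM, so it led in replicate 1 and came second in replicate 2. The targeting genes Ppp1r12a (13 and 18 reads, 15.8 and 24.2 CPM) and Ppp1r12b (17 reads in each, 20.7 and 22.9 CPM) were low, and Ppp1r16b had 8 and 3 reads. No read of Ppp1r12a or Ppp1r12b matched an annotated transcript, and 94.1% of Ppp1r12b reads were unspliced models.

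Genes for glycogen-targeting subunits, which carry PP1 to glycogen-metabolising enzymes, all had low levels. Ppp1r3c had 34 and 27 reads (41.4 and 36.3 CPM), Ppp1r3g 36 and 16 reads (43.8 and 21.5 CPM) and Ppp1r3f 29 and 15 reads (35.3 and 20.2 CPM). Ppp1r3d had 8 reads in each library and Ppp1r3e 3 and 2. The class had 110 reads in replicate 1 and 68 in replicate 2, or 134 and 91.4 CPM.

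Nuclear and core regulators of PP1 were led by Ppp1r7, a leucine-rich repeat protein that binds newly made PP1, with 65 and 73 reads (79.1 and 98.1 CPM), or 48.4% of the class and 77.8% with annotated transcripts only. The transcription-linked subunit Ppp1r10 had 32 and 21 reads (39.0 and 28.2 CPM), the centriolar protein Ppp1r35 19 and 23 (23.1 and 30.9 CPM), Ppp1r37 19 and 13 (23.1 and 17.5 CPM) and the nuclear inhibitor Ppp1r8 13 and 8 (15.8 and 10.8 CPM).

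The subunits that take phosphate off the translation factor eIF2alpha were both present. The stress-inducible Ppp1r15a had 32 and 39 reads (39.0 and 52.4 CPM) and the constitutive Ppp1r15b 22 and 23 reads (26.8 and 30.9 CPM). Ppp1r13b, a p53-binding protein of the ASPP family, had 74 and 98 reads (90.1 and 132 CPM). Of the other PP1 genes, Ppp1r21 had 19 and 23 reads (23.1 and 30.9 CPM) and Ppp1r26 had 7 and 15 (8.52 and 20.2 CPM), while Ppp1r18 (10 and 5 reads) and Ppp1r36 (2 and 1) were near the floor. The 8 members under 20 reads over both libraries had from 3 to 16 reads in all.

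The libraries were compared gene by gene with a two-sided Fisher's exact test that sets a gene's reads against the rest of each library. Like the intervals, p-values of this test and of the isoform and exon tests hold counting error only. A pass therefore cannot be told apart from ordinary spread between libraries. The p-values were adjusted by Benjamini-Hochberg over the 8875 genes with at least 20 reads. Of these genes, 140 (1.58%) passed the adjusted threshold of 0.05, and 53 members were among those tested. Ppp1r12c was the member that passed, 1 of 53. Its log2 ratio of replicate 2 over replicate 1 was -0.66 with an adjusted p of 0.0445 (Fisher's exact test). The call is near the threshold: the adjusted p was 0.107 with annotated transcripts only, 0.089 with no read minimum and 0.0508 with genomic models left out, and from 0.0165 to 0.0316 under the other 3 alternatives. Oligodendrocyte markers moved the same way, as given above, and so did the choroid plexus list (206 CPM in replicate 1 and 90.1 CPM in replicate 2). The CA3, astrocyte, microglia and vascular lists were also lower in replicate 2, and the CA1, dentate granule, GABAergic and striatal lists were higher. Ttr, the 1 gene of the choroid plexus list that could be tested, stood at 194 and 87.4 CPM. Clic6 had 6 and 0 reads, Folr1 and Otx2 each had 1 and 0, and Kl had 2 in each library. The part of these cell types in the Ppp1r12c difference was not tested.

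At an unadjusted p under 0.05 lay 5 members (9.43%), beside 911 of all tested genes (10.3%), so the members' share was near the background. Besides Ppp1r12c these were Ppp1r1b (log2 ratio -1.15, adjusted p 0.17), Ppp1r3g (log2 ratio -1.0, adjusted p 0.314), Ppp1r1a (log2 ratio 0.43, adjusted p 0.325) and Ppp1r13b (log2 ratio 0.55, adjusted p 0.289), all by Fisher's exact test. The CPM of the libraries differed at least 2-fold in 409 of the 8875 genes (4.61%) and in 3 of the 53 members, Ppp1r1b, Ppp1r3g and Ppp1r26. These members had from 22 to 56 reads over both libraries. The median log2 ratio was 0.00475 over the tested members and 0.0117 over all tested genes.

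For Ppp1r13b the difference lay in 1 kind of read. Its unspliced (genomic) reads numbered 24 in replicate 1 and 48 in replicate 2, and its remaining reads numbered 50 in each library. For Ppp1r3c the unspliced reads went the other way, 19 and 7, while those on annotated transcripts were 15 and 20.

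**Figure D3:**
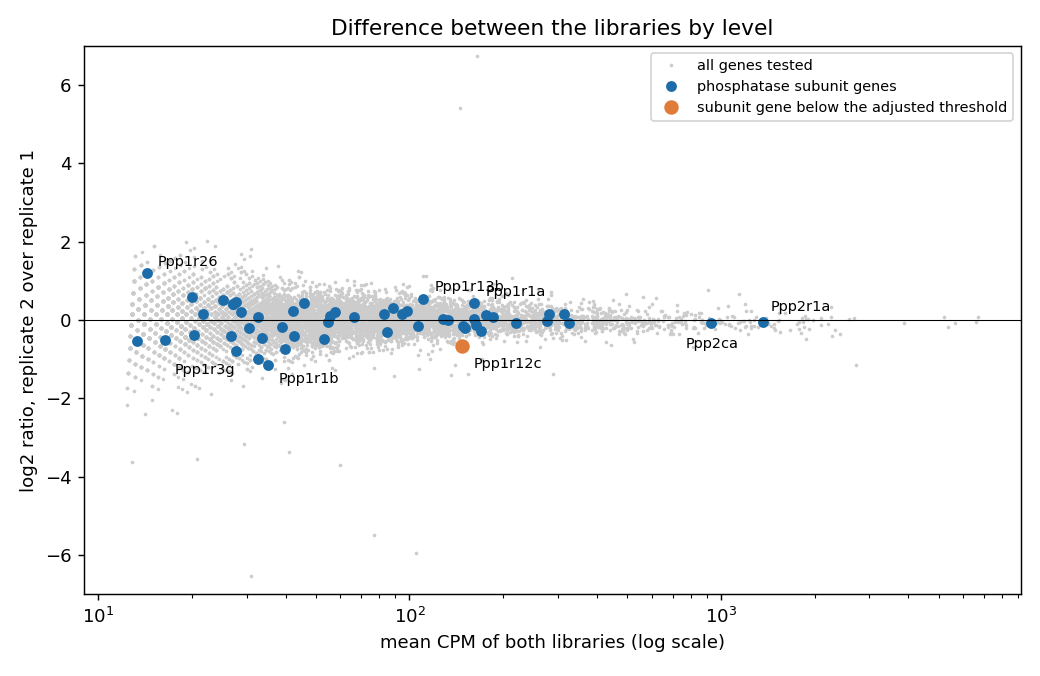
Log2 ratio of replicate 2 over replicate 1 against mean CPM (log axis) for the 8875 tested genes (grey) and the 53 tested members (blue), with Ppp1r12c, the member that passed the adjusted threshold, in orange. The most abundant members lie close to 0, and the members with ratios near 1 or -1 have mean levels under 40 CPM.

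Most reads of the members rested on annotated transcripts, though not evenly. Each deposited model is classed as annotated, as an incomplete match to an annotated transcript, as a new pairing of known splice sites (new combination), as holding a new splice site, or as genomic, without a spliced structure of its own. Annotated transcripts took 73.9% ± 0.178 of members' reads, beside 71.5% ± 1.12 over all protein-coding genes (SD, n = 2). Incomplete matches took 15.9% ± 0.453, beside 10.7% ± 0.261, and without Ppp2r1a the members' value was 10.7% ± 0.134. New combinations, new splice sites and genomic models took 3.27%, 3.46% and 3.45% of members' reads, beside 6.81%, 4.19% and 6.77% overall.

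Across the 53 members with at least 20 reads the annotated share had a median of 70.5%, beside 71.4% over all such protein-coding genes, and exceeded 50% in 39. It was highest in Ppp1r11 (98.1%), Ppp1r14b (96.4%) and Ppp2ca (96.1%). It was lowest in Ppp1r12a and Ppp1r12b (0), Ppp6r2 (6.06%), Ppp1r26 (9.09%), Ppp1r9a (12.8%) and Ppp2r5c (13%). Longer genes by longest coding transcript had lower shares, with a Spearman rho of -0.3 across the 53 members and -0.458 across 8610 protein-coding genes. Genes are not independent replicates, and all points share these 2 libraries, so these are descriptions.

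**Figure D4:**
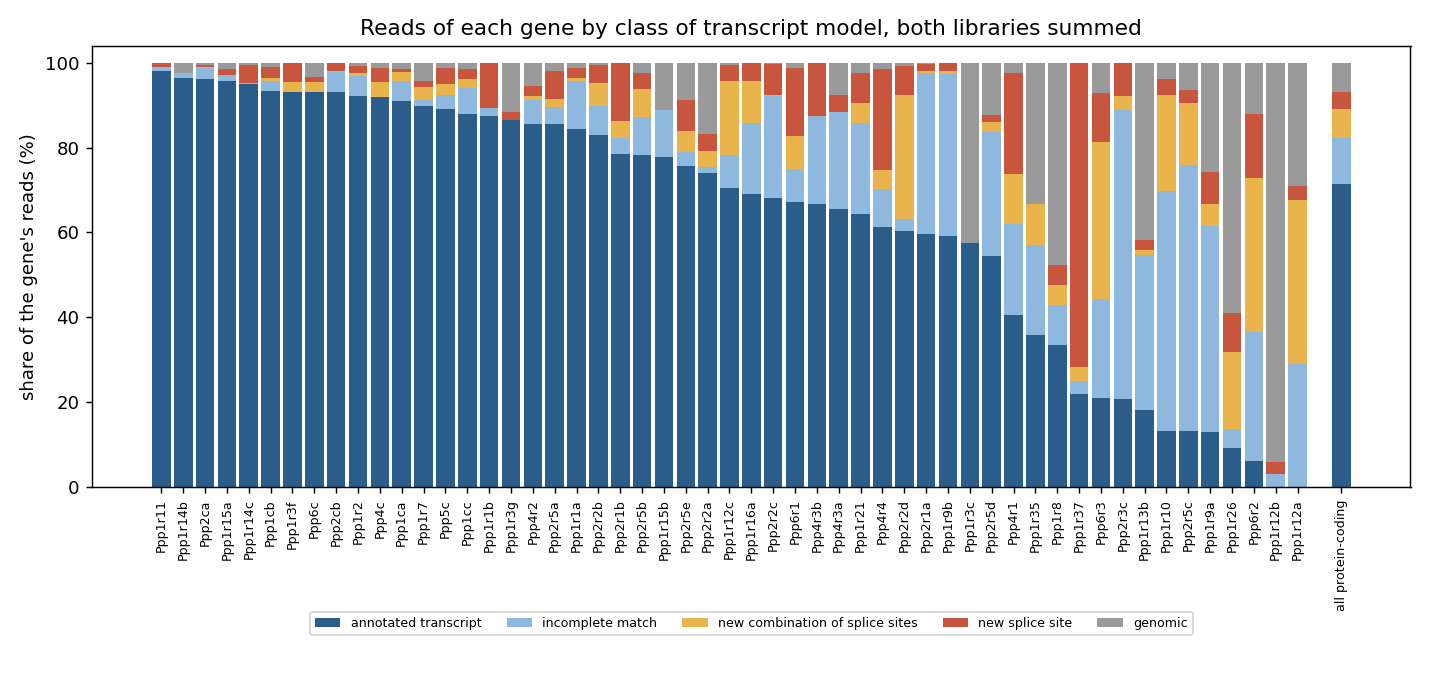
Share of each gene's reads by class of transcript model, both libraries summed, for the 53 members with at least 20 reads and, at the right, the mean over all protein-coding genes. The dark blue annotated share runs from 98.1% in Ppp1r11 to 0 in Ppp1r12a and Ppp1r12b.

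Ppp2r1a had the most incomplete reads. Its full annotated transcript Ppp2r1a-201 (15 exons; the gene lies at chr17:20945311-20965916, plus strand) had 670 and 604 reads. A model of 11 exons that begins at exon 5 had 336 and 295 reads, 29.6% and 29.4% of the gene. Against reads with the first annotated junction, reads of models beginning there were 33.3% in replicate 1 (30.5% to 36.2%) and 32.5% in replicate 2 (29.5% to 35.6%), so the libraries gave the same share within counting error. Such a transcript lacks the first 4 exons, which hold 167 of the 589 codons. The deposited start lies 128 bases before exon 5 and coincides with that of an annotated intron-retaining transcript, Ppp2r1a-206.

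Incomplete matches made up 38.1% of Ppp2r1a reads, against a median of 4.69% over the 434 protein-coding genes with at least 500 reads, and 25 of those genes (5.76%), Ppp2r1a included, had a share that high. Of the members' 1776 incomplete reads, 66.3% had their lower coordinate and 81.3% their higher coordinate exactly at an annotated transcript end. Whether the deposited ends of these models are those of the reads was not tested. The share of incomplete cDNA among these reads was not tested. A like pattern was seen in Ppp2r3c, where 29 and 17 reads began inside the annotated second exon and 10 and 5 reads held the first annotated junction.

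Of Ppp2r5c reads, 63.0% were incomplete matches, 14.5% new combinations and 13% annotated transcripts. The upstream first exon was used in 76 of 87 reads in replicate 1 and 72 of 85 in replicate 2 that spanned this choice, a share of 86.0% ± 1.87 (SD, n = 2). The short end shown above closed 71 of 84 reads in replicate 1 (84.5%, 75.3% to 90.7%) and 70 of 90 in replicate 2 (77.8%, 68.2% to 85.1%). The most abundant model, with 54 and 55 reads, joined the upstream first exon to the short end in 14 exons. It is classed as an incomplete match, and its reads count toward the short-end share. Whether such reads end early was not tested. The coding part of the annotated short-end transcript Ppp2r5c-205 has 452 codons and that of the long-end transcript Ppp2r5c-202 has 485.

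Once incomplete matches are left out, 3 forms of Ppp2r5c passed the isoform rule (at least 5 reads and 10% of the gene's full-length reads). A new model of 15 exons that joins the upstream exon to the long end had 9 and 15 reads, Ppp2r5c-205 had 7 in each library, and Ppp2r5c-202 had 3 and 4. Among these forms the long end thus had more reads than the short end in both libraries, unlike in the count with incomplete matches. The proportions of the 3 forms did not pass the test between the libraries (adjusted p 1.0, chi-square test with simulated tables).

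PP1 gamma was mostly of the gamma1 form. The last intron, whose removal gives gamma2, was spliced in 15 of 145 reads in replicate 1 (10.3%, 6.37% to 16.4%) and in 16 of 140 in replicate 2 (11.4%, 7.16% to 17.8%), so gamma2 made up 10.9% ± 0.766 (SD, n = 2). Another intron of the gene, intron 5 (chr5:122172956-122173145), was kept in 14 of 140 and 12 of 135 reads, 9.44% ± 0.786 (SD, n = 2). A processed pseudogene named Ppp1ccb had 56 and 50 reads of its own, and how reads of near-identical copies were assigned is not given in the sources used here.

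Inhibitor-1 RNA came in 2 forms. Of the reads informative on the 61-base exon of Ppp1r1a, 26 of 103 in replicate 1 (25.2%, 17.9% to 34.4%) and 22 of 115 in replicate 2 (19.1%, 13% to 27.3%) skipped it. The skipping transcript is annotated as Ppp1r1a-202, without a coding sequence, and had 25 and 22 reads, beside 77 and 88 for Ppp1r1a-201, which encodes 171 codons. The intervals of the libraries overlapped, and the exon test gave an adjusted p of 1.0 (Fisher's exact test).

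The delta B55 gene Ppp2r2d had the most variable exons of any member, 5 of the 9 found. Its 166-base coding exon was skipped in 11 of 76 reads in replicate 1 (14.5%, 8.28% to 24.1%) and 13 of 54 in replicate 2 (24.1%, 14.6% to 37.0%). The coding exons chr7:138868410-138868507 and chr7:138870390-138870502 were held by 91.7% ± 4.28 and 89.4% ± 3.76 of reads (SD, n = 2). An extra exon outside the coding sequence, chr7:138865021-138865117, was in 13 of 76 and 2 of 54 reads, and another, chr7:138860837-138860909, in 7 of 76 and 1 of 54. The first of these had the smallest unadjusted p of the members' exons, 0.0242, with an adjusted p of 1.0 (Fisher's exact test). The passing transcripts were Ppp2r2d-201 (453 codons, 36 and 29 reads) and Ppp2r2d-207 (288 codons, 10 and 5 reads), and new combinations of splice sites held 24 and 15 reads.

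In Ppp1r12c the longer form with the 3 bases CAG at the junction made up 29 of 145 reads in replicate 1 (20.0%, 14.3% to 27.2%) and 15 of 83 in replicate 2 (18.1%, 11.3% to 27.7%). The intervals of this choice overlapped, while the level of the gene was lower in replicate 2. At this junction Ppp1r12c-201 (86 and 46 reads) has the shorter form and Ppp1r12c-202 (21 and 11 reads) the longer. The transcripts differ by more than the CAG, because Ppp1r12c-201 has 782 codons in all and Ppp1r12c-202 has 704. The Ppp1r12c coding exon chr7:4497416-4497546 was held by 133 of 137 and 72 of 78 reads.

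Ppp1r16a varied ahead of its coding sequence. A 167-base exon of the 5′ untranslated region (chr15:76689328-76689494) was in 28 of 105 reads in replicate 1 and 22 of 86 in replicate 2, a share of 26.1% ± 0.767 (SD, n = 2). The transcript without it, Ppp1r16a-201, had 64 and 54 reads, and that with it, Ppp1r16a-205, had 23 and 20. Ppp4c-201 had 34 reads in each library and Ppp4c-211 had 7 and 4. Ppp2r5d-201 had 26 and 35 reads and Ppp2r5d-204 had 3 and 6. Ppp1r3g-201, the coding transcript, had 16 and 4 reads and the single-exon Ppp1r3g-202 had 14 and 11.

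Some members also had models that the annotation lacks. In Ppp4r4, 28 of 36 and 16 of 22 reads ended exon 3 at the annotated site (position 103558470 of chromosome 12), and the others ended it further on. The annotated full form of Ppp4r4 had 25 and 14 reads, and the 2 new models that passed the isoform rule had 3 and 4 and 4 and 2. In Ppp6r2 the leading new model had 7 and 4 reads and another 3 and 2. Its exon chr15:89279273-89279353 (81 bases) was in 4 of 20 and 2 of 20 reads, and annotated transcripts had 1 and 3 reads in all.

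In Ppp1r37 a junction that the annotation lacks removed 1272 bases (chr7:19530836-19532107, minus strand) and was in 11 of 19 reads in replicate 1 and 6 of 12 in replicate 2. Its removed segment begins with GT and ends with AG, the usual splice site bases, and shares 0 bases with the flanks at its ends. The model that carries it had 10 and 6 reads, while the annotated full form of Ppp1r37 had 2 and 5.

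**Figure D5:**
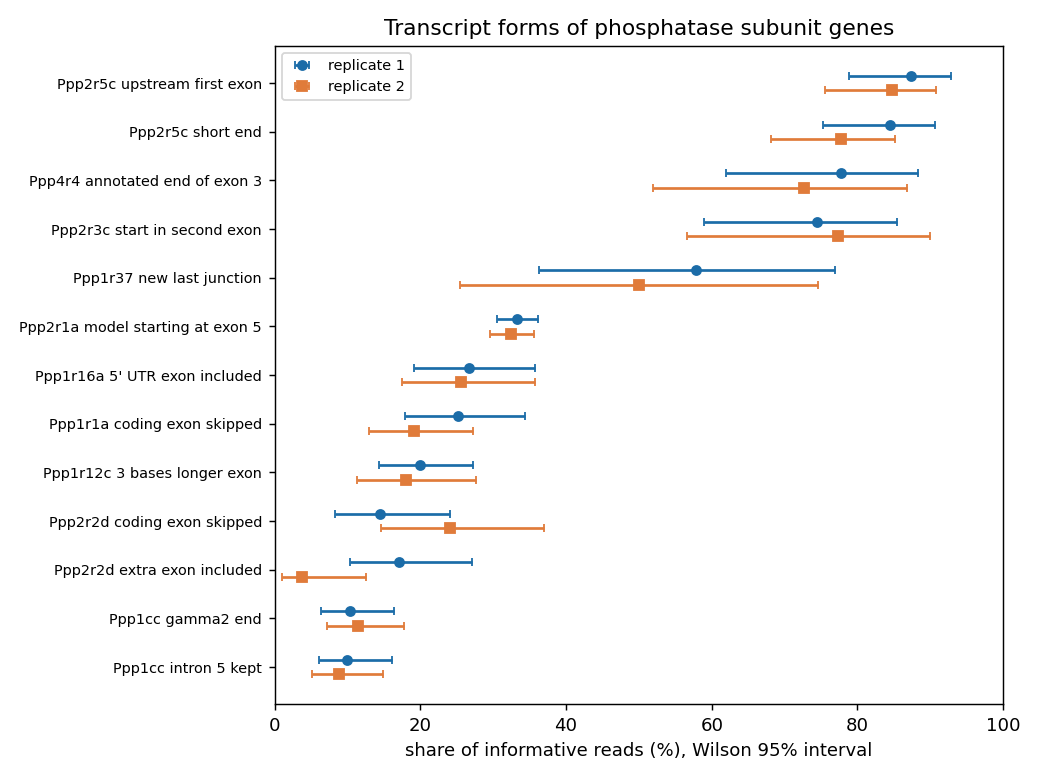
Share of informative reads that carry each transcript form, in percent, for 13 choices in 10 members; circles are replicate 1, squares replicate 2 and bars Wilson 95% intervals. The intervals of the libraries overlap for every form shown, and the Ppp2r1a share is the narrowest because 1018 and 909 reads inform it.

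Tests of splicing found no member that differed. Isoform proportions were tested in 1800 genes, of which 13 (0.722%) passed, and in 8 members, of which 0 passed and 0 had an unadjusted p under 0.05 (Fisher's exact or simulated chi-square test). Inclusion was tested for 2272 variable exons, of which 1 (0.044%) passed, and for 9 exons of members, of which 0 passed and 1 had an unadjusted p under 0.05 (Fisher's exact test). Of the 53 members with a passing isoform, 39 had 1 and 14 had several.

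Genes that act on these phosphatases without sharing their symbols were read from lists of partners. None of the 43 list genes that could be tested passed between the libraries, beside 1.58% of all tested genes. An unadjusted p under 0.05 was found for 2 of the 43, beside 10.3% of all tested genes (Fisher's exact test). Among 13 genes for the activation, methylation and inhibition of PP2A, the most abundant were Ensa (323 ± 19.8 CPM), which inhibits B55-bound PP2A once phosphorylated, the methylesterase gene Ppme1 (238 ± 14.9), the inhibitor gene Set (198 ± 22.9) and Arpp19 (162 ± 1.38; all SD, n = 2). Their kinase gene Mastl had 0 and 2 reads and the inhibitor gene Cip2a also 0 and 2.

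The STRIPAK complex, in which striatins serve as B subunits of PP2A, was led by Strn4 (543 ± 19.9 CPM), the kinase gene Stk25 (399 ± 16.4), Fgfr1op2 (166 ± 29.1) and Strn3 (108 ± 6.87; all SD, n = 2). Strn4 thus exceeded the most abundant B55 gene Ppp2r2c in both libraries (528 and 557 CPM against 298 and 329 CPM). Of the ankyrin subunits of PP6, Ankrd28 had 10 and 15 reads, Ankrd44 13 and 7 and Ankrd52 1 in each library.

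PP1 partners without a Ppp symbol were led by Phactr1 (123 ± 22.1 CPM) and Phactr3 (84.8 ± 13.2), which bind PP1 and actin, then Tox4 (82.3 ± 4.18) and Shoc2 (51.8 ± 0.914; all SD, n = 2). Of 9 synaptic kinases and substrates linked to these phosphatases, the most abundant were Camk2b (871 ± 30.3 CPM), the protein kinase A catalytic gene Prkaca (461 ± 26.5), and the AMPA receptor genes Gria2 (456 ± 5.69) and Gria1 (313 ± 30.9; all SD, n = 2). The median log2 ratios of these 5 lists ran from -0.125 to 0.3, beside 0.0117 over all tested genes.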

How the data were processed

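Per the file headers and values, the values deposited are whole read counts for each transcript model and were not normalized. Per the text deposited with them, the authors used mm10 and GENCODE M21. Aligner and caller: not given in the sources used here. Attribute names are those TALON writes. Counts were summed per gene over models of known genes, and ERCC spike-in reads were left out of library sizes. Tests used scipy 1.17.1. Log2 ratios add 0.5 reads. Variable exons had 20 informative reads per library and a mean inclusion of 5% to 95%. Alternatives included TMM library sizes (edgeR 4.0.16) and DESeq2 1.42.0 size factors. On simulated data the gene test recovered 200 of 200 genes changed 4-fold among 8889, with 4 false calls. The simulated counts varied by counting error alone, so smaller changes and other spread between libraries were not covered. Every member with at least 20 reads was named, the others by range, and so were isoforms and exons past the stated rules and the 4 most abundant genes of each list. Members and lists were chosen with earlier results of these data known, and the single splice choices after their reads were seen. Values of the astrocyte, microglia, vascular and GABAergic lists are given in the closing section.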

Additional observations from a re-analysis of the deposited data

Results flagged for a closer look

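Reads in models that the comparisons above do not use were found beside several members, above the 3 reads that a count of 0 allows. The processed pseudogene Ppp1ccb had 56 and 50 reads in replicates 1 and 2, and the unprocessed pseudogene Ppp4r1l-ps had 10 and 5. Antisense models outside the annotation overlapped exons of Ppp1r7 (20 and 6 reads), Ppp1r12c (15 and 10), Ppp1r16b (10 and 17), Ppp5c (10 and 4), Ppp6r3 (8 and 11), Ppp6r2 (7 and 10), Ppp6r1 (6 and 10), Ppp4r1 (4 and 5) and Ppp2r2a (4 in each library). Over Ppp1r16b the antisense reads outnumbered the gene's own 8 and 3 reads in both libraries. Over Ppp1r12c they stood beside 149 and 85 reads of the gene.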

How the results depend on the processing

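No paired analysis was possible because the study has 1 group. The number of genes that passed between the libraries stayed within 1.5 times of 140 except with annotated transcripts only (74 of 6509 tested, against 140 of 8875). The number at least 2-fold different, 409 of 8875, became 5963 of 18311 with no read minimum and 64 of 5607 with at least 50 reads. Genes with differing isoform proportions numbered 4 of 1117 with annotated transcripts only, against 13 of 1800. Differing exons numbered 4 of 2142 without incomplete matches and 0 of 3936 with at least 10 reads, against 1 of 2272. No member's isoform or exon passed under any of these. For the gene with the highest mean share in each class, the share with annotated transcripts only was 97.0% for Ppp2r1a, 50% for Ppp2r5b, 55.1% for Ppp2r3c, 42.8% for Ppp4r2, 89.7% for Ppp6r1, 77.8% for Ppp1r7, 26.1% for Ppp1r3c, 96.9% for Ppp1r9b, 50.4% for Ppp1r16a, 65.8% for Ppp1r15a and 63.2% for Ppp1r21. Without genomic models it was 25.7% for Ppp1r3c, 47.7% for Ppp1r16a and 61.2% for Ppp1r21. Under both, Ppp1r3g had the highest mean share of the glycogen class (31.0% and 30.7%), and the other 17 of the 18 classes had the leading gene they have with all models. The median member level was 28.3 CPM with annotated transcripts only, and 45.7 to 49.9 CPM with 1 library left out. The causes were not tested. Depth limits the 8 members under 20 reads, which were not tested.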

Other observations

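In the CA1 list Ccn3 was higher in replicate 2 (323 and 454 CPM, adjusted p 0.00439, Fisher's exact test). The lists of other cell types summed as follows in replicates 1 and 2: astrocyte 7774 and 7184 CPM (6 of 10 tested genes lower in replicate 2, of which Aldoc and Gjb6 passed the adjusted threshold), microglia 644 and 618 CPM, vascular 655 and 583 CPM, and GABAergic 902 and 1058 CPM, the last 3 with no gene passing the adjusted threshold of Fisher's exact test and 2, 0 and 3 genes under an unadjusted p of 0.05.

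Promoter windows from 250 bases before to 50 after the start were matched in RefSeq (GRCm38.p6) for 50 of the 61 members, giving 63 windows beside 32851 for all genes, many without reads here. Their median GC content was 64.0%, against 52.7% over all windows.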
